A study of Mus musculus with 2 samples.

Results

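The genes described here drive DNA replication and mitosis: 40 mouse genes chosen by name and found on the array through the accession of each probe. All 40 of the 20017 genes that could be named had at least 1 probe, with 53 probes in all. RNA came from dissected glomerular regions of male mice on a C57BL/6J background, made diabetic with streptozotocin (STZ), which kills pancreatic beta cells. Every animal was injected at 8 weeks, in 100 mmol/l citrate buffer, and killed at 32 weeks. One group was wild type (WT+STZ) and the other carried a transgene that overexpresses Sirt1, an NAD-dependent deacetylase (TG+STZ), with 1 array each. The promoter of the transgene and the number of mice behind each array are not given in the sources used here, and no nondiabetic array was analysed here.

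Dividing cells copy their DNA in S phase and separate it in mitosis. Before S phase the MCM helicase is loaded onto replication origins, and PCNA clamps the polymerases to DNA. Cyclins and their kinases time the steps, kinesins move chromosomes and build the spindle, and the spindle checkpoint holds the cell until every chromosome is attached. Most cells of an adult kidney rest outside the cycle, and podocytes, the epithelial cells of the glomerular filter, rarely complete mitosis. In a bulk sample, fewer cells of a type and less RNA per cell cannot be told apart.

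By the scanner software's flag, 75.04% (WT+STZ) and 76.26% (TG+STZ) of the 43020 gene spots were well above background. Signals are processed intensity units. A difference is the log2 signal of TG+STZ minus that of WT+STZ after subtracting each array's 75th percentile. A gene counted as measured when a probe was well above background on both arrays, and 15975 genes were. With 1 array per group there is no replicate check and no test. The ± value is the scanner software's error of the spots, 0.20 for the median gene, and it covers neither the spread between mice nor disagreement between probes. The number of arrays limits the precision. Signals of different probes are not set against each other as levels, because each probe binds its target with its own strength.

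Sirt1 itself differed by 0.10 ± 0.20 between the arrays, within its scanner error. Whether its probes also read the transgene's transcript is not known here, so this value does not check the labels, and each array is named by its label.

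The defining markers of podocytes, glomerular endothelium, mesangium and proximal tubule were all measured, so the RNA held glomerular and tubular transcripts. Of 6 podocyte markers 5 were lower on the TG+STZ array (summed signals 21466 and 17439 units), as were 6 of 6 lymphocyte markers (-0.79 to -0.03) and 5 of 5 measured macrophage markers (-0.50 to -0.11). Of 6 urothelial markers 5 were higher, up to 1.19 (summed signals 2965 and 5737 units). Of 6 proximal tubule markers 5 were lower, from -0.18 to 0.26. Glomerular endothelial markers were lower in 6 of 6 (-0.30 to -0.0022) and mesangial ones in 5 of 6 (-0.35 to 0.15). Among 5 measured germinal center and plasma cell markers, 4 were higher, but only Jchain (2.23) and Mzb1 (0.25 ± 0.20) lay beyond their scanner errors. The summed signals (33926 and 38542 units) were mostly Xbp1 (32404 and 33460 units), the 1 marker that was lower (-0.03). Of the male germ cell markers 3 were measured and 2 were higher (summed signals 271 and 327 units), with Dazl and Stra8 above background on neither array. The fat cell markers Fabp4 and Cfd were higher, at 0.34 and 4.82, with Lep above background on neither. Of 5 measured injured tubule markers 3 were higher (-0.36 to 1.19), and of 4 erythroid ones 3 were lower (-0.54 to 0.22). The 1.19 of the injured tubule and urothelial lists is the same gene, Krt20 (23.2 and 55.7 units), which stands in both. The part of these cell types in the differences below was not tested.

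The proliferation genes as a group had a median difference near that of all measured genes, and a handful of single genes stood apart. Of the 40 members 35 were measured, and their median difference was -0.0016, beside 0.0030 over all measured genes. Of the 35, 27 (77.1%) lay within their own scanner error of 0, beside 76.3% of all measured genes. A share near that background is not a result about these genes. The members 2-fold or more higher on the TG+STZ array were 2 of 35, beside 0.52% of all genes, and 1 of 35 was 2-fold or more lower, beside 0.469%. All 3 were kinesins. At 1.5-fold, 5 of 35 (14.3%) were apart, beside 3.66% of all genes. Cenpe, Kif20b and Ccnd1 were higher, where 1.75% of all genes were, and Kif11 and Mcm6 lower, where 1.91% were. Among genes brighter than the median gene, 1.64% were 1.5-fold or more apart and 0.451% 2-fold. Each of these 5 genes rested on 1 probe. The members were chosen with earlier results of these data known, so their shares cannot show an excess over all genes.

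**Figure D1:**
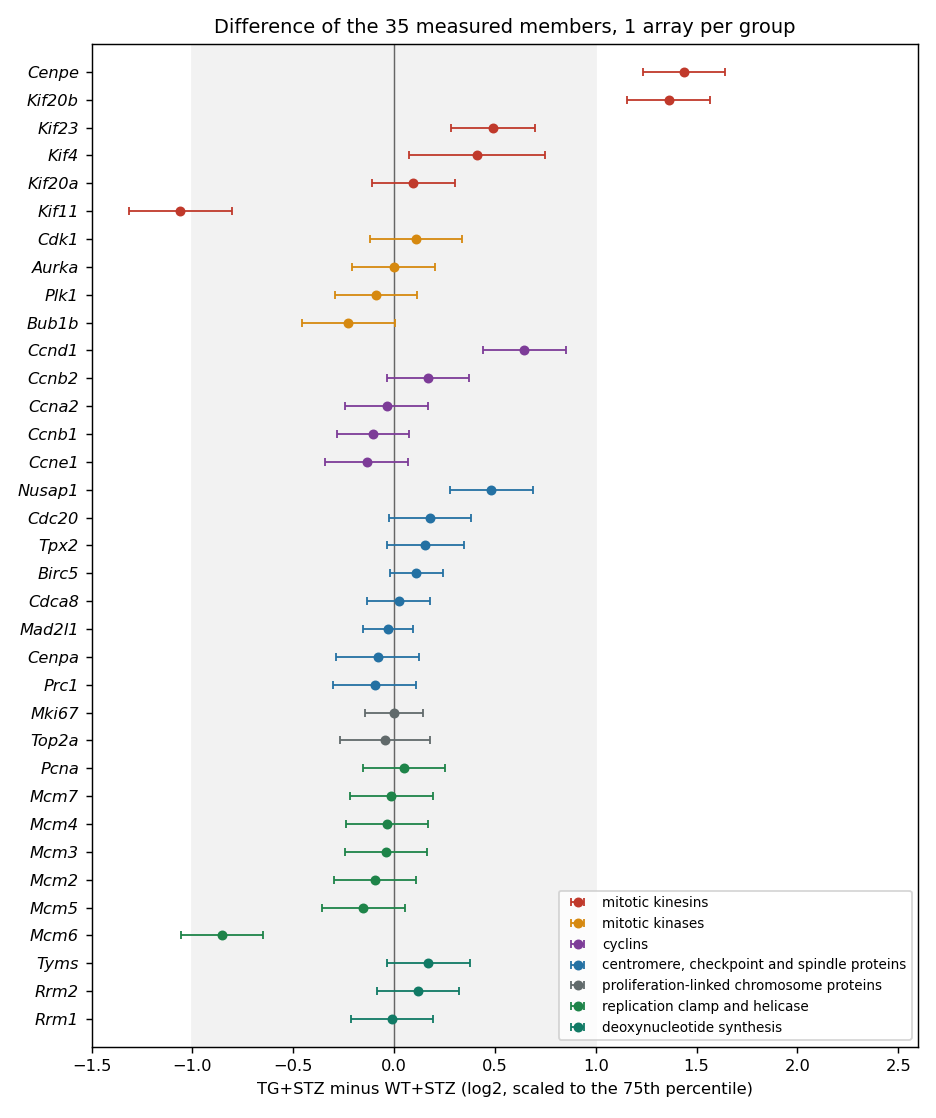
Difference of each of the 35 measured members (x axis, log2, positive where TG+STZ was higher), grouped and coloured by role. Points are values from 1 array per group, bars the scanner error, and the grey band the range within 2-fold; Cenpe and Kif20b lie to the right of the band, Kif11 to its left, and Mcm6 stands apart from the other helicase subunits.

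**Figure D2:**
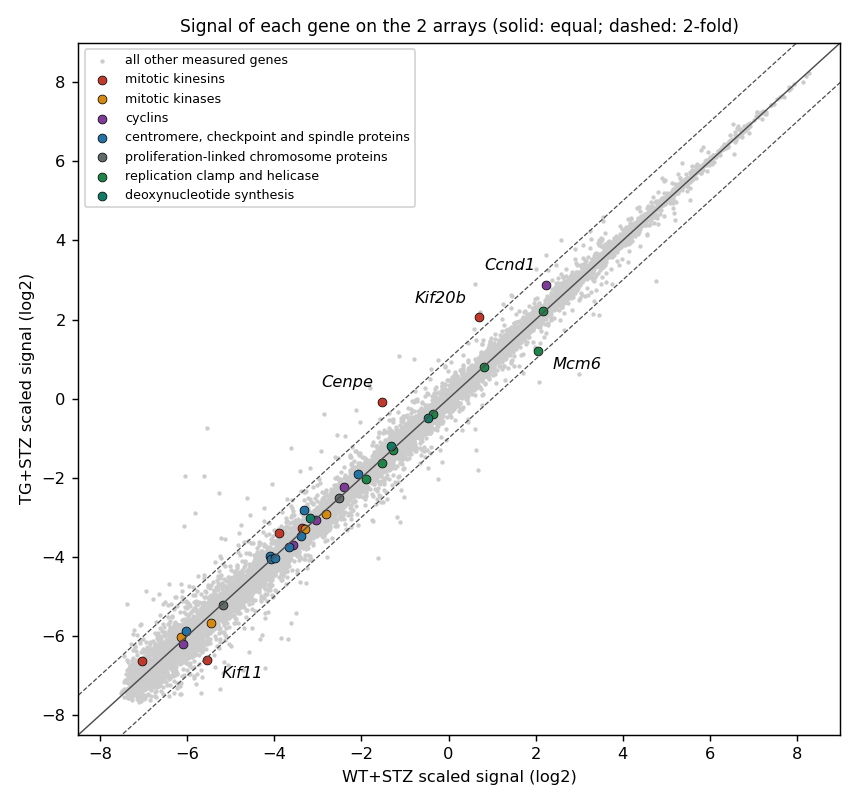
Scaled log2 signal of every measured gene on the WT+STZ array (x axis) and the TG+STZ array (y axis), with members coloured by role and the other genes in grey. The solid line marks equal signals and the dashed lines 2-fold; most members lie on the solid line, among the other genes, and 5 are labelled.

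Promoter sequences are shown for the 4 members that stood furthest apart and for Ccnb2, which did not. Many genes of mitosis carry a cell cycle homology region (CHR), through which they are kept silent outside the cycle, near CCAAT boxes, which bind the activator NF-Y. The sequences are the 250 bases before the RefSeq start of each gene (assembly GRCm38.p6), written along the strand of the gene. Capitals mark the CHR letters TTTGAA and the CCAAT letters CCAAT, or their reverse complements TTCAAA and ATTGG.
Cenpe, chr3:135212313-135212562, plus strand: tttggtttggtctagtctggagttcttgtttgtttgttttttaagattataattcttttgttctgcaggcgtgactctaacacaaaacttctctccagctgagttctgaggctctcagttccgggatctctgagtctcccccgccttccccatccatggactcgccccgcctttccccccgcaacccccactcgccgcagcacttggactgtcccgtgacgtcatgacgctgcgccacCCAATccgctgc
Kif20b, chr19:34922108-34922357, plus strand: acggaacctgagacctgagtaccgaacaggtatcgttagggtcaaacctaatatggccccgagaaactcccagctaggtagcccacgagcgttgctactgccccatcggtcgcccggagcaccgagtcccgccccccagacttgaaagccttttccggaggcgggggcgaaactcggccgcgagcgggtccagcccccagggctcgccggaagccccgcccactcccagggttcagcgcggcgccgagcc
Kif11, chr19:37376132-37376381, plus strand: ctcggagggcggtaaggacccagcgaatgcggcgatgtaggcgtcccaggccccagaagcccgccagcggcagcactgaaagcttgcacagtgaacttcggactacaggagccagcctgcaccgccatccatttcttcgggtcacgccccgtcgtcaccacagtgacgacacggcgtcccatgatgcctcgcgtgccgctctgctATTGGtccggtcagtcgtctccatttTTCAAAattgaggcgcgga
Mcm6, chr1:128359706-128359955, minus strand: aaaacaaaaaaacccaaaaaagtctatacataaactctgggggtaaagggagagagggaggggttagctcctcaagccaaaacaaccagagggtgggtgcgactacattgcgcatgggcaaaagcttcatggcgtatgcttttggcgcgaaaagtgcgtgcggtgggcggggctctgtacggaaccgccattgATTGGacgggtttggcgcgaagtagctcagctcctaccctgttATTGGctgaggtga
Ccnb2, chr9:70421555-70421804, minus strand: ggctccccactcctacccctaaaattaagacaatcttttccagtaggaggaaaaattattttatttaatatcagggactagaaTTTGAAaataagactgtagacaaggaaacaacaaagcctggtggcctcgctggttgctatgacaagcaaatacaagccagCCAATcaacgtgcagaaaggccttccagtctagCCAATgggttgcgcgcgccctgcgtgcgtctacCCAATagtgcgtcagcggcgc

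The windows of Cenpe and Kif20b, which were higher on the TG+STZ array, did not carry the same letters. Cenpe had 1 CCAAT match, 12 bases before the start, and Kif20b had neither motif. Kif11, lower on the TG+STZ array, had a CHR match 19 bases and a CCAAT match 45 bases before the start. Mcm6 had CCAAT matches at 57 and 14 bases. Ccnb2, with a difference of 0.17 ± 0.20, had 3 CCAAT matches and 1 CHR match. A window was given for 34 of the 40 members, some with more than 1. CCAAT letters stood in 27 of the 34 (79.4%), beside 33.9% of 32841 windows over all genes. CHR letters stood in 9 of the 34 (26.5%), beside 16.0% of all windows. The 8 measured members with CHR letters had a median difference of -0.02 and ran from -1.06 to 0.18, while the 22 without ran from -0.85 to 1.44 around a median of -0.0064. GC box letters (GGGCGG or CCGCCC) stood in 24 of the 34 members and 32.7% of all windows. TATA box letters (TATAAA or TTTATA) stood in 1 of the 34 and 12.4% of all windows. The CHR and CCAAT letters share no overlap in the sequences shown. A match is a description of letters, not a site of binding.

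The mitotic kinesins were the role with the widest differences. Cenpe, the kinetochore motor that brings chromosomes to the spindle equator, read 674 units for WT+STZ and 1928 for TG+STZ. That is 2.71-fold higher in TG+STZ (log2 1.44 ± 0.20), and 32 of the 15975 measured genes had a larger positive difference. Kif20b, a motor of late cell division, read 3149 and 8541 units, 2.57-fold higher in TG+STZ (log2 1.36 ± 0.20). Before any correction, the spot medians were 710 and 1969 for Cenpe and 2553 and 6863 for Kif20b, over local backgrounds of 27 to 31 and of 28 units. The differences are therefore present in the uncorrected brightness of both spots. Kif20a, the closest relative of Kif20b in this set and a motor of the central spindle, read 189 and 212 units (log2 0.09 ± 0.21). Kif20b minus Kif20a came to 1.27, a value that no constant scaling of an array alters.

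Kif11, the motor that pushes spindle poles apart, was lower on the TG+STZ array, unlike the other 5 measured member kinesins. Its signal was 41.2 units for WT+STZ and 20.8 for TG+STZ, 2.09-fold lower (log2 -1.06 ± 0.26). Its probe was dim, at the 6.99th percentile of measured genes, and the spot medians were 75 and 56 over local backgrounds of 29 and 32. Under normexp background correction, which damps dim signals, its difference was -0.55. Of 13 probes printed about 10 times and read at 20 to 40 units, the median SD between spots of 1 array was 0.15 (WT+STZ) and 0.16 (TG+STZ). Between the arrays, those 13 probes differed by -0.76 to 0.20, and probes of 10 to 20 and of 40 to 100 units reached -1.601 and -2.04. The spot SD covers neither arrays nor mice.

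The other kinesins were nearer to 0. Kif23, a component of the central spindle that guides cytokinesis, read 130 and 193 units (log2 0.49 ± 0.21). Kif4, which binds chromosome arms, read 14.7 and 20.6 units (log2 0.41 ± 0.34). Both values depend on the background correction, since normexp gave 0.22 for Kif23 and -0.13 for Kif4. Kif2c, which takes microtubules apart at the centromere, had 2 probes flagged as above background only for TG+STZ (12.8 and 10.8 units), with 13.1 and 7.74 units for WT+STZ, so no fold is given. Of the 6 measured kinesins 5 lay above 0, as did 50.9% of all measured genes. The kinesin median was 0.45, or 0.089 under normexp. Of 7 further mitotic kinesins 3 were measured: Kif18a, Kif22 and Kif24 stood at -0.08, -3.6e-05 and -0.02, each within its error. Of 15 transport kinesins, which carry cargo in resting cells, 9 were higher and 6 lower, from Kif21a at -0.53 to Kif5a at 0.44.

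The mitotic kinases that could be measured showed no difference beyond the scanner error, like 76.3% of all measured genes. Plk1, which triggers entry into and exit from mitosis, read 274 and 272 units (log2 -0.09 ± 0.20). Aurka, the kinase of the spindle poles, read 197 and 207 units (log2 -0.0016 ± 0.21). Bub1b, a checkpoint kinase at kinetochores, read 44.3 and 40.02 units (log2 -0.23 ± 0.23). Cdk1, the kinase that starts mitosis, was measured by 2 of its 3 probes, at 58.3 and 66.1 units (log2 0.10) and 12.8 and 14.7 units (0.12). These 4 genes had a median of -0.05.

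The remaining kinases lay at the edge of detection. Bub1, another checkpoint kinase, was printed 10 times on each array. Its spots ran from 8.21 to 21.4 units around a median of 13.6 in WT+STZ and from 8.94 to 18.6 around 14.7 in TG+STZ, so the arrays overlapped. The spots were well above background in 5 of 10 cases in WT+STZ and 7 of 10 in TG+STZ, their SD was 0.47 and 0.32 on the log2 scale, and the difference was 0.09. Aurkb, the kinase of the chromosomal passenger complex, read 14.1 units for WT+STZ and 1.94 for TG+STZ, where it was not well above background. Set against the lowest signal flagged as above background on the TG+STZ array (9.70 units), it was at least 1.53-fold higher in WT+STZ. That floor is not a strict limit, since a Kif2c probe at 13.1 units was not flagged on the WT+STZ array, and the scanner error of the Aurkb difference was 1.46. Ttk, a kinase that starts the checkpoint, was not well above background on either array (2.75 and 2.496 units).

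**Figure D3:**
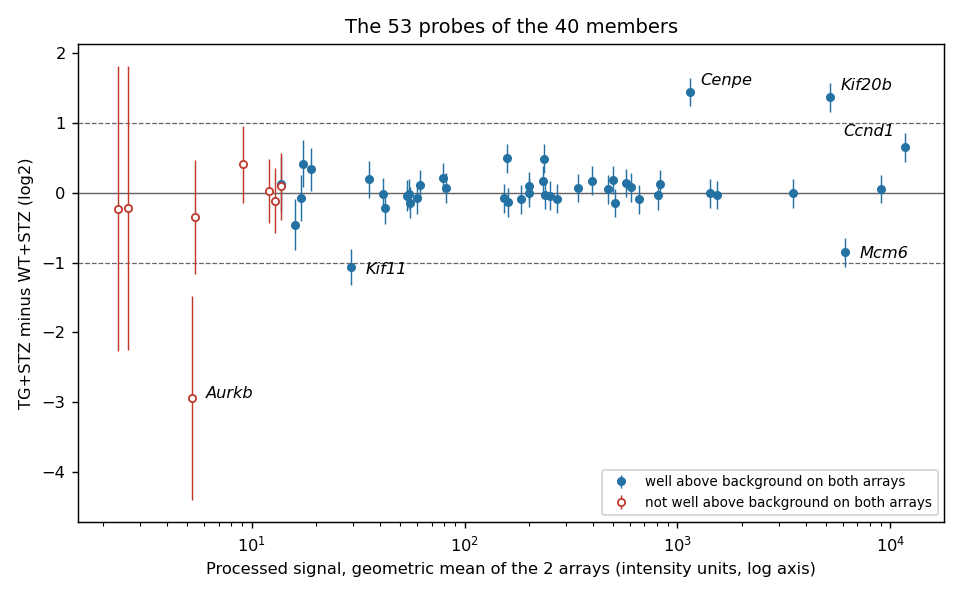
Difference (y axis, log2) of all 53 probes of the 40 members against their processed signal (x axis, geometric mean of both arrays, log axis), with the scanner error as bars. Filled points were well above background on both arrays and open points were not; Cenpe, Kif20b, Ccnd1 and Mcm6 are bright, Kif11 is dim, and Aurkb was not measured on both arrays.

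Of the 5 member cyclins, 4 lay within their scanner error, as did 76.3% of all measured genes, and Ccnd1 did not. This cyclin links growth signals to the start of the cycle and is made by many resting epithelia. Its signal was 9122 units for WT+STZ and 15081 for TG+STZ, 1.57-fold higher (log2 0.65 ± 0.20). The related Ccnd2 and Ccnd3 stood at 0.02 and -0.22 ± 0.14, and Ccnd1 minus their mean came to 0.75. Ccna2, the cyclin of S phase and early mitosis, read 236 and 243 units (log2 -0.04). Ccnb2, a cyclin of mitosis, read 365 and 433 units (0.17), and Ccne1, which starts replication, 163 and 156 units (-0.14). Ccnb1, the main partner of Cdk1, had 3 probes that disagreed: 71.8 and 88.0 units (log2 0.21), 17.1 and 17.1 (-0.07), and 18.3 and 14.1 (-0.46).

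Checkpoint, centromere and spindle proteins were close to equal, with 7 of 8 measured members within their error, beside 76.3% of all measured genes. Nusap1, which binds and steadies spindle microtubules, was the exception at 195 and 288 units (log2 0.48 ± 0.21, or 0.24 under normexp). Cdc20, which activates the ubiquitin ligase APC/C at anaphase, read 457 and 547 units (0.18). The passenger proteins Birc5 and Cdca8, partners of Aurkb, stood at 0.11 ± 0.13 over 3 probes and 0.02 ± 0.16 over 2. Mad2l1, the checkpoint inhibitor of Cdc20, stood at -0.03 ± 0.12, Tpx2, an activator of Aurka, at 0.15 ± 0.19, and Prc1, which bundles microtubules, at -0.096. Cenpa, the histone of the centromere, read 153 units on both arrays (-0.08). Cenpf was not well above background on either array (2.48 and 2.23 units).

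The commonly used markers of dividing cells did not separate the arrays. Mki67, the gene of the Ki-67 antigen, was read by 2 probes at 452 and 493 units and at 250.3 and 256 units, with differences of 0.04 and -0.05. Their mean was -0.0005 ± 0.14. Top2a, the topoisomerase that untangles sister chromatids, read 53.3 and 54.5 units (log2 -0.05 ± 0.22). In all, 7 members had several measured probes, and in 5 of them the probes lay on opposite sides of 0. The widest gap was 0.67, for Ccnb1.

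Apart from Mcm6, each replication gene lay within its scanner error, as did 76.3% of all measured genes. The MCM helicase is a ring of 6 different subunits, encoded by Mcm2 to Mcm7. Mcm6 read 8009 units for WT+STZ and 4683 for TG+STZ, 1.81-fold lower (log2 -0.85 ± 0.20), and 116 of the 15975 genes were lower still. Its spot medians before correction were 9152 and 5357 over local backgrounds of 26 and 32. The other 5 subunits ran from -0.15 (Mcm5, 524 and 498 units) to -0.014 (Mcm7, 3412 and 3570 units), each within its error. Between them, Mcm2 read 668 and 660 units (log2 -0.096), Mcm3 801 and 823 (-0.04) and Mcm4 1511 and 1556 (-0.04). Mcm6 minus their mean came to -0.79, which no constant scaling alters. Pcna, the sliding clamp, read 8680 and 9485 units (log2 0.05). The makers of DNA building blocks were within their error. Rrm1 and Rrm2, subunits of ribonucleotide reductase, read 1396 and 1462 units (log2 -0.011) and 772 and 885 units (0.12). Tyms, which makes thymidylate, read 214 and 254 units (0.17).

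Of 183 further genes in 11 lists, 168 were measured; 15 of them are the transport kinesins and the others act in the cell cycle. None was 2-fold or more higher and 1 (0.595%) was 2-fold or more lower, beside 0.989% of all measured genes 2-fold apart in either direction. The median was 0.0046. The lower gene was Rad1, a subunit of the clamp that signals stalled replication, at 1737 units for WT+STZ and 667 for TG+STZ (2.75-fold, log2 -1.46 ± 0.20). The other subunits of that clamp, Rad9a and Hus1, stood at -0.21 and 0.19, and Rad17, which loads it, at 0.03. Rad1 minus the mean of Rad9a and Hus1 was -1.45.

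The regulators of the cycle lay on both sides of 0. Within their scanner error were 18 of 20 genes of the E2F group, 11 of 14 further cyclins and kinases, and 5 of 7 inhibitors of cyclin-dependent kinases. The share over all measured genes was 76.3%, and counts near it are not a result about these genes. Of 20 genes of the E2F, RB, MYB and FOXM1 group, which switch the cycle's genes on and off, 9 were higher and 11 lower with a median of -0.03. They ran from E2f2 at -0.39 to E2f5 at 0.15, with Foxm1 at -0.05 and Mybl2 at 0.01. Inhibitors of cyclin-dependent kinases had a median of 0.02 over 7 genes, with their extremes on opposite sides. Cdkn2c read 472 and 790 units (log2 0.66 ± 0.20) and Cdkn2b 542 and 378 units (-0.63 ± 0.15). Cdkn1a, a target of p53, stood at 0.05. Further cyclins and kinases ran from -0.22 (Ccnd3) to 0.25 (Wee1), with a median of -0.07.

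Kinetochore genes had a median of -0.0066 over 28, from Cenpm at -0.78 ± 0.30 (31.1 and 19.1 units) to Cenpk at 0.29. Cohesin and condensin genes had a median of 0.01, from Espl1, the protease that parts chromatids, at -0.50 ± 0.27 to Rad21 at 0.23. Origin licensing genes had a median of 0.04 with 12 of 16 higher, beside 50.9% of all measured genes. They ran from Gins4 at -0.25 to Mcm10 at 0.63 (700 and 1145 units). Among replication polymerases and clamp loaders the lowest was Pold1 at -0.43, and APC/C genes ran from Anapc10 at -0.35 to Fbxo5 at 0.14. Their medians were 0.0008 and -0.0025.

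**Figure D4:**
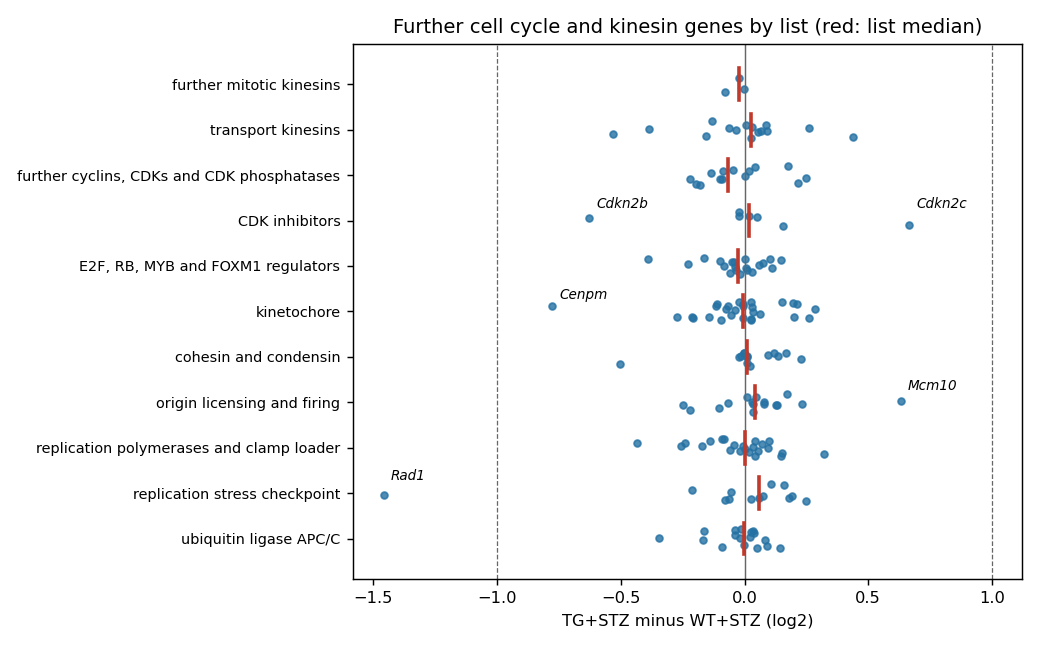
Difference (x axis, TG+STZ minus WT+STZ, log2) of each measured further gene by list, 1 point per gene, with the list median in red and dashed lines at 2-fold. The medians lie between -0.07 and 0.06, Rad1 lies beyond 2-fold, and genes more than 1.5-fold apart are labelled.

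**Figure D5:**
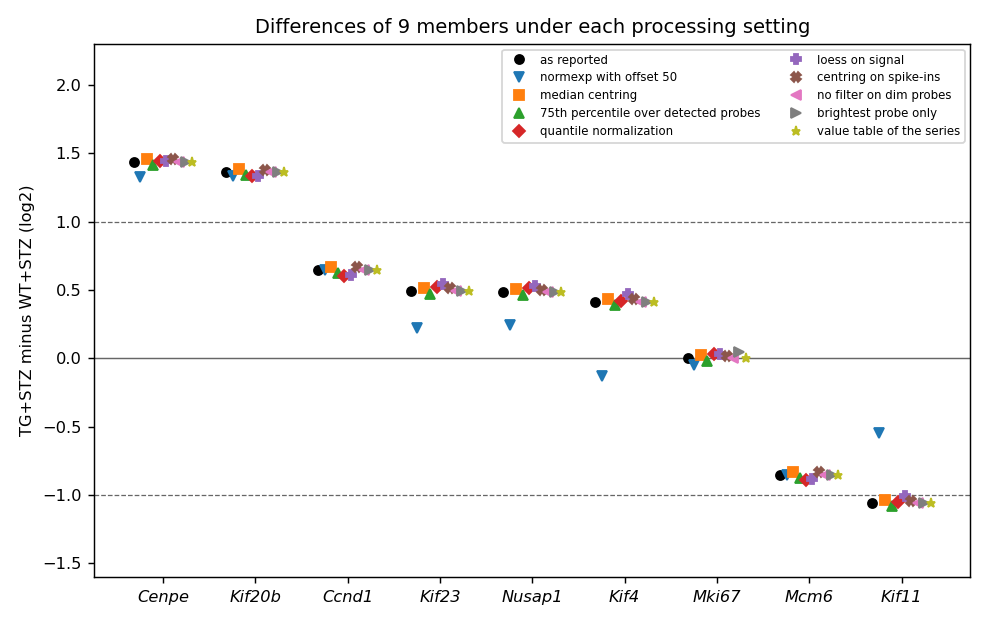
Difference (y axis, log2) of 9 members as reported and under 9 other processing settings, 1 symbol per setting, with dashed lines at 2-fold. Cenpe stayed between 1.33 and 1.46 and Mcm6 between -0.89 and -0.83, while normexp moved the dimmer genes Kif11, Kif23, Nusap1 and Kif4.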

How the data were processed

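Cy3-labelled RNA was hybridised to 1-colour Agilent arrays, 1 per group. The deposited values are intensity, background-subtracted and corrected for trends within each array by the scanner software (Agilent Feature Extraction 10.7.1.1 per the file headers, 10.3.1.1 per the submitters' processing notes). At all 44397 spots the series' value table gave identical intensity.

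Controls and outlier-flagged gene spots (114 and 109 on the arrays) were removed. Signals were put on the log2 scale and each array's 75th percentile was subtracted. Spots of a probe, then measured probes of a gene, were averaged. A probe was measured when over 50% of its spots were well above background and none was saturated, on both arrays. Of 39426 probes, 26410 were named through RefSeq accessions (GRCm38.p6). Probe positions were not used.

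Every member is named, with the extremes of each further list. One such extreme is not reported here. The members and lists were chosen with earlier results of these data known. Alternatives were normexp (offset 50, on spot medians), other scalings, loess (span 0.3), no filter, a laxer flag, the brightest probe and a 1.5-fold threshold. A restriction to bright genes was added after seeing the data. The steps were tested on simulated data in which bright and dim spots had the same log2 noise. That test does not cover the wider spread of dim probes. Software: limma 3.58.1 in R 4.3.3; Python 3.11.15 with pandas 2.3.3, numpy 2.4.6, matplotlib 3.10.9 and statsmodels 0.14.6 was used.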

Additional observations from a re-analysis of the deposited data

How the results depend on the processing

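Of 315 values of the 35 measured members under 9 alternatives, 306 stayed within the scanner error of the value reported. The other 9 came from normexp (7) and the brightest probe (2). Cenpe, Kif20b, Ccnd1 and Mcm6 were not among them. Much of this agreement was fixed in advance, so the count overstates how firm the values are. The series' value table held the same intensities as the scanner files. For a gene with 1 probe, such as these, the brightest probe and the lack of a filter also return the same value. Scalings by a constant shift every gene alike. The median of all genes moved by less than 0.1 under every scaling tried, and no member 1.5-fold or more apart changed sign under these 9. The 2-fold call of Kif11 was lost under normexp (-0.55), so members 2-fold lower numbered 0 there, and also 0 among genes brighter than the median gene. They numbered 2 with no filter on dim probes, where Aurkb entered, and 2 at 1.5-fold. Over all genes, 83 were 2-fold higher and 75 lower as reported, 36 and 29 under normexp, and 295 and 323 with no filter. Further genes of the 11 lists that were 2-fold higher numbered 3 and lower 2 with no filter, and 2 and 3 at 1.5-fold. The median of the members was -0.065 under normexp, beside -0.049 over all genes. With the brightest probe it was 0.045, beside 0.0079 over all genes. Under normexp the kinesin median was 0.089 and that of centromere, checkpoint and spindle proteins -0.097. The cyclin median was 0.17 with the brightest probe. Among genes brighter than the median gene, the medians were 1.40 for kinesins, 0.65 for cyclins and -0.011 for deoxynucleotide synthesis, from the few members left. Under the laxer detection flag 37 members were measured. No array could be left out, and dim probes limit Kif4, Kif11, Kif2c and the kinases Bub1, Aurkb and Ttk. No paired analysis was possible because each group had 1 array.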

Other observations

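Values are given for the genes next to the members that stood apart. The 5 nearest measured genes on each side, in the order of the RefSeq gene table, ran from -0.72 (Arhgef38) to 0.63 (4930539J05Rik) around Cenpe on chromosome 3. Around Kif20b on chromosome 19 they ran from -0.61 (Ifit1, an interferon-response gene) to 0.36 (Pank1, a kinase of coenzyme A synthesis). Kif11 lies on the same chromosome, with neighbours from -0.30 (Hhex) to 0.37 (Cpeb3). The neighbours of Mcm6 on chromosome 1 ran from -0.19 (Dars) to 0.57 (Cd55, a brake on complement), and the 7 near Ccnd1 on chromosome 7, which lies close to the end of the list, from -0.05 (Fadd) to 0.30 (Ano1, a chloride channel). None of these neighbours was 2-fold apart. At 1.5-fold, 2 of the 10 near Cenpe were apart, Arhgef38 lower and 4930539J05Rik higher, and 1 of the 10 near Kif20b, Ifit1, was lower. Over all measured genes 3.66% were 1.5-fold or more apart.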
